A study of Rattus norvegicus with 18 samples.

Results

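Of the 18 hippocampal libraries in the series, 4 carried a Ttr level above 11 on the log2 scale and 14 did not. The 4 were HR_38 of the bHR line and IR_213, IR_248 and IR_261 of the bIR line, named by line and rat number as in the labels, and no bLR library was among them. They were chosen by the measured level of Ttr, which encodes transthyretin, the thyroxine carrier that choroid plexus epithelium secretes in large amounts. The split was used to ask which transcripts of dissected hippocampus followed choroid plexus content. Because the outcome chose the libraries, differences between the 4 (called Ttr-rich here) and the other 14 (Ttr-poor) are given as a description with no test. The test was made on what the split did not use, the differences in Ttr among the 14.

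Whole hippocampus was taken from adult male rats selectively bred for locomotor response to novelty, with 1 library per rat and 6 rats per line. bHR (bred High Responder) and bLR (bred Low Responder) rats were of generation F37 and were killed at P160 to P167 (postnatal days). bIR (bred Intermediate Responder) rats came from crossing F37 bHR with bLR rats and were killed at P126 to P134, and their elevated plus maze test fell at P65 to P75 instead of P160 to P167. The labels name no drug and no transgene. They also name no batch, lane or litter for a rat, so age and line cannot be told apart for bIR, and p-values measure the spread between these rats.

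The choroid plexus is a sheet of cuboidal epithelium on a vascular stroma that hangs into the ventricles and secretes cerebrospinal fluid. In the lateral ventricle it is attached along the fimbria, next to the hippocampus, so that tissue can come away with the dissected hippocampus. Its epithelium moves ions and water across tight junctions, takes up folate and other solutes, and secretes carrier proteins and growth factors. Its stroma holds fibroblasts, fenestrated vessels and macrophages.

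Totals ran from 31.1 to 66.6 M reads per library, from 31.1 to 47.6 M in the 4 Ttr-rich libraries (median 37.7) and from 31.4 to 66.6 M in the 14 (median 45.7). Correlations between libraries over all 20909 genes lay between 0.962 and 0.981. Levels are in FPM, fragments scaled for library depth by the authors, which is not adjusted for gene length and is compared here only between libraries for the same gene. In bulk tissue, fewer cells of a type and less RNA per cell cannot be told apart.

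Promoters from RefSeq (build GRCr8, 250 bases before to 50 after the annotated start) are shown for 4 genes that followed Ttr in the test described further on and that carried a searched motif. They are printed 5′ to 3′ on the gene's strand, with the motif in capitals. Kcnj13 and Aqp1 hold the TATA box letters TATAAA, and Mfrp and Abca4 hold GGATTA, the reverse complement of TAATCC, the core bound by OTX-type homeodomain factors.

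Kcnj13 promoter, chr9:95518937-95519236, minus strand: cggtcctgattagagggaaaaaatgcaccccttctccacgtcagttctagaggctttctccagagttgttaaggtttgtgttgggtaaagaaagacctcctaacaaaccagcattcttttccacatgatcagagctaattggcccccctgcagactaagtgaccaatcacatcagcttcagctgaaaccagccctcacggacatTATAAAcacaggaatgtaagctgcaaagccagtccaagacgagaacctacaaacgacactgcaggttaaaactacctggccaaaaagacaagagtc
Aqp1 promoter, chr4:85812534-85812833, plus strand: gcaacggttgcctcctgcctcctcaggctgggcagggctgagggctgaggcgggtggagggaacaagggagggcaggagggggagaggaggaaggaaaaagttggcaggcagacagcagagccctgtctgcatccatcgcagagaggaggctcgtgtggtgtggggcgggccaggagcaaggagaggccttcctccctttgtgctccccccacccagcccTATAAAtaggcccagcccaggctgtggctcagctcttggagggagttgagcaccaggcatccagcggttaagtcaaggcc
Mfrp promoter, chr8:53342284-53342583, plus strand: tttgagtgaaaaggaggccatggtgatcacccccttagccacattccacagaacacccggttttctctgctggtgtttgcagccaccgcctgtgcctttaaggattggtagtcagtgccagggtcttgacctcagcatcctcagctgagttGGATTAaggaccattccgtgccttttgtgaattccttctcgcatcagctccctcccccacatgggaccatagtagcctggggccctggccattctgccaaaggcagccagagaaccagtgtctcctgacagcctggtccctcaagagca
Abca4 promoter, chr2:212849235-212849534, plus strand: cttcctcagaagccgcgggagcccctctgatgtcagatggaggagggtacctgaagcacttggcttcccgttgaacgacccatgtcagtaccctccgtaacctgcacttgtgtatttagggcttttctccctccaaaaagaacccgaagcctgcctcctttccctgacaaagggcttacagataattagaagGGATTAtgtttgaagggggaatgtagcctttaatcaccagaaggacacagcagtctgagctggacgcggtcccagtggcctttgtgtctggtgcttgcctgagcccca

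Of the 20 genes called in that test, 14 had a promoter in the table. TAATCC on either strand was in those of 4 genes (Abca4, Adipoq, Mfrp, Pla2g5), against 7.17% of all 33469 promoters of this length. TATAAA on either strand was in those of 3 genes (Aqp1, Kcnj13, Slco1a5), against 14.2% of all. The FOX-type letters TGTTTAC on either strand were in 0 of the 14, against 3.78% of all. The 3 motifs were chosen for this purpose and a match is only a match of letters.

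Ttr spanned a 219-fold range across the 18 libraries. Its level was 13406 FPM in IR_261, 11994 in IR_213, 4172 in HR_38 and 3397 in IR_248, which made up 0.341% to 1.32% of all reads. Among the other 14 it ran from 61.1 FPM (HR_22) to 1635 (LR_20) with a median of 115. The threshold of 11 corresponds to 2048 FPM, so IR_248 (11.73 on log2) lay just inside and LR_20 (10.67) just outside. Below LR_20 came LR_48 at 929 FPM and HR_2 at 553, and the remaining 11 libraries lay at or below 192 FPM. The libraries thus formed a graded series in the upper part and a cluster of 11 at the bottom, not 2 separate classes.

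The other 4 genes that define choroid plexus epithelium were also highest in IR_213, IR_261 and HR_38. Kcnj13, an inward rectifier potassium channel of the apical membrane, was at 45.8 FPM in HR_38, 155 in IR_213, 20.9 in IR_248 and 128 in IR_261, and from 0.62 to 24.4 FPM (median 1.87) in the 14. The 24.4 FPM belonged to LR_20, above IR_248. Kl, which encodes klotho, the co-receptor for a fibroblast growth factor hormone, was at 45.7, 118, 11.1 and 106 FPM in the same order and from 1.96 to 23.3 (median 2.99) in the 14, again with LR_20 above IR_248. Clic6, an intracellular chloride channel family member, was at 45.3, 122, 21.2 and 125 FPM against 5.47 to 34.7 (median 9.32), with LR_20 on top once more. Folr1, the folate receptor that carries folate into cerebrospinal fluid, was at 44.5, 114, 29 and 125.8 FPM against 6.53 to 25 (median 9.43), with no overlap.

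By these markers the labels rich and poor held for IR_213, IR_261, HR_38 and the 11 lowest libraries, and the boundary between IR_248 and LR_20 was a matter of which gene was read. The mean log2 level of the 5 markers relative to the mean of the 14 was 4.92 in IR_213, 4.90 in IR_261, 3.43 in HR_38, 2.39 in IR_248 and 2.54 in LR_20. LR_48 and HR_2 followed at 1.02 and 0.97. The slope test without LR_20 is given after the gene groups.

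**Figure D1:**
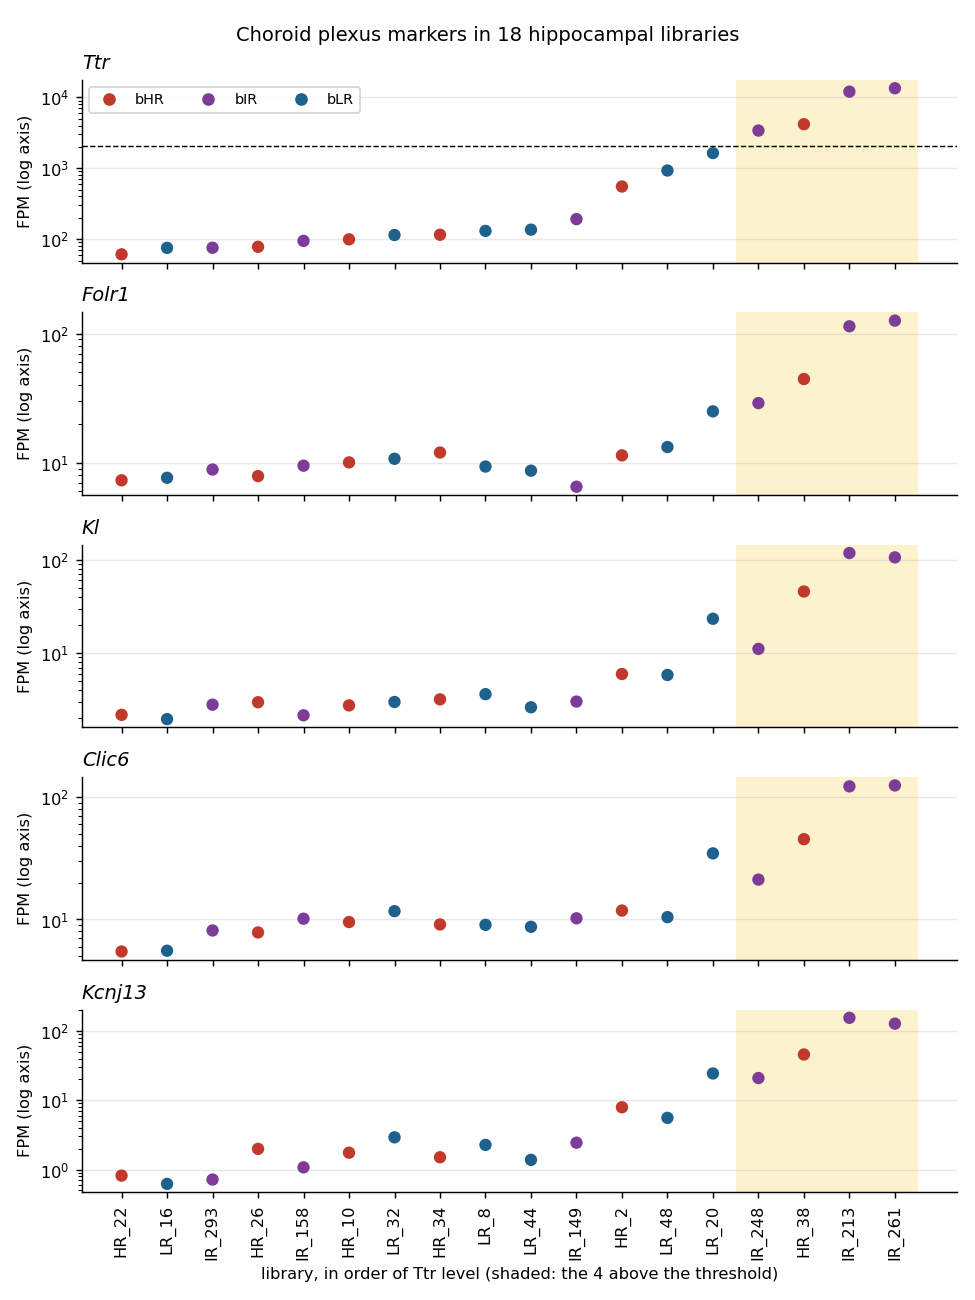
Levels of Ttr, Folr1, Kl, Clic6 and Kcnj13 (FPM, log axes) in each library, ordered from left to right by Ttr and coloured by line. Shading marks the 4 libraries above the threshold, and the dashed line in the Ttr panel is 2048 FPM. LR_20 lies above IR_248 for Kl, Clic6 and Kcnj13.

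Adjusted for line, 84 of 20909 genes (0.402%) were at least 1 higher on the log2 scale in the Ttr-rich libraries with no overlap of the 4 and the 14, and 2 (0.00957%) were as much lower. Since Ttr chose the libraries, nothing is read from these counts alone. No bLR library was Ttr-rich, so the size of the line-adjusted difference rests on libraries compared within bHR and within bIR. The bLR libraries, LR_20 and LR_48 among them, bear on the overlap and the SE but not on that size. Of the 84, 18 carried placeholder symbols, 31 had a mean log2 level below 0, and 16 belonged to the choroid lists. Both lower genes, Cyp27b1 and Art1, were counted at 0 or 1 read in the Ttr-rich libraries and at 1 to 27 and 1 to 10 reads in the 14. Without the condition on size, all 4 Ttr-rich libraries lay above all 14 for 114 genes (0.545%) and below for 3 (0.0143%). The third of these was Sorcs1, a sorting receptor of neurons, at 37.9 to 40.9 FPM against 41.8 to 62.4, a difference of -0.29 (SE 0.09) on the log2 scale. The median difference over all genes was -0.01.

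Choroid genes were listed by role, 111 measured of 114 listed. Of these 111, 100 had a higher level in the Ttr-rich libraries, 45 by at least 1 on the log2 scale (572 of all genes, 2.74%), with a median of 0.61. The summed level of the choroid lists ran from 12462 to 29554 FPM in the Ttr-rich libraries and from 7951 to 11321 in the 14, Ttr included. Without Ttr it was 16148 FPM in IR_261, 15271 in IR_213, 10571 in HR_38 and 9064 in IR_248, and from 7873 to 9687 in the 14, with LR_20 above IR_248.

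The test among the 14 libraries fitted each gene's log2 level on that of Ttr with the line means as covariates (limma, empirical Bayes with trend, adjusted over 20908 genes). A slope of 1 means that the gene doubled whenever Ttr doubled. A positive slope passed for 20 genes (0.0957%) and a negative slope for 0 (0%), with 1383 genes at an unadjusted p under 0.05. Of the 20 genes, 12 were in the choroid lists, out of 110 choroid genes tested, and 8 were not. The bHR and bIR libraries among the 14 also set the size of the difference between Ttr-rich and Ttr-poor libraries, and all 14 enter the overlap. The 2 sets of values are therefore given side by side and are not independent of each other. Of the 110, 87 had a positive slope and 98 were not called.

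**Figure D2:**
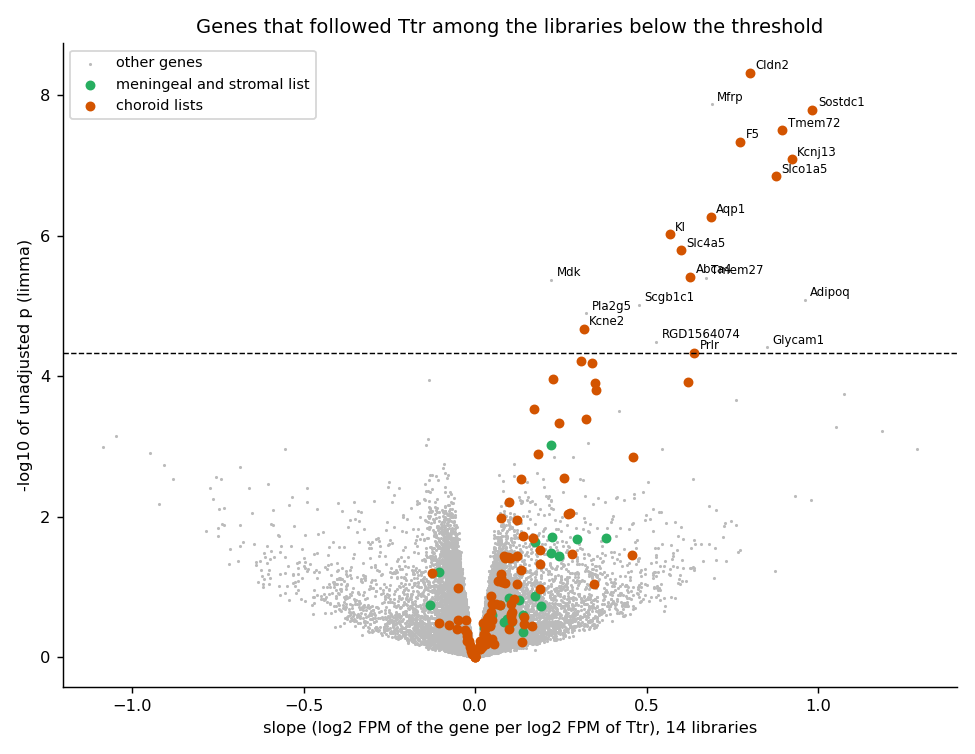
Slope of each gene's log2 level on the log2 level of Ttr among the 14 libraries (x axis) against -log10 of the unadjusted limma p (y axis). Orange points are choroid list genes, green points meningeal and stromal list genes and grey points all others. The 20 named genes at or above the dashed line, drawn at the largest p of a called gene, all have positive slopes.

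Of the defining markers, Kcnj13 and Kl passed that test and Folr1 and Clic6 did not. Kcnj13 had a slope of 0.92 (SE 0.10, adjusted p = 2.84e-04) and differed by 5.41 (SE 0.96) between Ttr-rich and Ttr-poor libraries. Kl had a slope of 0.57 (SE 0.08, adjusted p = 0.00221) and a difference of 4.13 (SE 0.72). The slope of Clic6 was 0.35 (SE 0.07, adjusted p = 0.0998) with a difference of 2.70 (SE 0.53), and that of Folr1 was 0.24 (SE 0.06, adjusted p = 0.296) with a difference of 2.84 (SE 0.42). Folr1 and Clic6 were read at 6.53 and 5.47 FPM or more in every library, including those lowest in Ttr.

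Among 19 genes of ion and water transport, 18 were higher in the Ttr-rich libraries, 9 by at least 1, and 4 passed the slope test (Tmem72, Aqp1, Slc4a5, Kcne2). Aqp1, the apical water channel, was at 40.6 FPM in HR_38, 111 in IR_213, 22.5 in IR_248 and 113 in IR_261 and from 0.956 to 18.1 (median 2.73) in the 14, with no overlap. Its slope was 0.69 (SE 0.09, adjusted p = 0.0014). Kcne2, a potassium channel subunit of the apical membrane, was at 40.5, 98.6, 28.8 and 118 FPM against 3.61 to 13.4 (median 4.46), with no overlap. It rose by 0.32 (SE 0.05, adjusted p = 0.0259) per doubling of Ttr. Slc4a5, a sodium bicarbonate cotransporter, was at 38.6, 101, 14.5 and 108 FPM, and LR_20 at 22.3 exceeded IR_248. Its slope was 0.60 (SE 0.08, adjusted p = 0.00335). Tmem72, a transmembrane protein of unsettled role, had a slope of 0.89 (SE 0.09, adjusted p = 1.65e-04) and a difference of 4.97 (SE 0.91).

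Of 23 genes of nutrient and solute transport, 19 were higher, 9 by at least 1, and Slco1a5 and Abca4 passed the slope test. Slco1a5, an organic anion transporter, was at 31.5 FPM in HR_38, 65 in IR_213, 13.5 in IR_248 and 81.7 in IR_261 against 0.398 to 12.4 (median 1.15), with no overlap, and its slope was 0.88 (SE 0.10, adjusted p = 4.23e-04). Abca4, a retinoid-handling ABC transporter better known from photoreceptors, was at 6.51, 18, 2.46 and 13.7 FPM against 0.281 to 6.46, so that LR_20 again stood above IR_248. Its slope was 0.63 (SE 0.09, adjusted p = 0.00684). Steap1, a member of the STEAP family of membrane proteins, did not overlap (2.26 to 11.6 against 0.488 to 2.19 FPM). However, its slope of 0.27 (SE 0.09) had a limma adjusted p of 0.713. Lrp2, the endocytic receptor megalin, was not higher, at 1.48 to 2.93 FPM against 1.53 to 5.02.

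Of 24 secreted proteins, 23 were higher, 10 by at least 1, and Sostdc1 and F5 passed the slope test. Sostdc1, an antagonist of BMP and Wnt signalling, was at 52.8 FPM in HR_38, 181 in IR_213, 28.3 in IR_248 and 193 in IR_261 against 0.549 to 26.5 (median 2.15). The groups did not overlap, and the slope of 0.98 (SE 0.10, adjusted p = 1.13e-04) was the highest among the choroid genes called. F5, coagulation factor V, was at 25.8, 144, 11 and 118 FPM, while LR_20 reached 34.3, above both HR_38 and IR_248. Its slope was 0.77 (SE 0.08, adjusted p = 1.92e-04).

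The growth factor Igf2 and its binding protein Igfbp2 separated the groups without passing the slope test. Igf2 was at 298 FPM in HR_38, 613 in IR_213, 156 in IR_248 and 579 in IR_261 against 26.2 to 112 (median 40.9), with a slope of 0.35 (SE 0.07, adjusted p = 0.121). Igfbp2 was at 44.9 to 165 against 7.49 to 31.2 FPM, with a slope of 0.34 (SE 0.06, adjusted p = 0.0605). Enpp2, autotaxin, was at 816, 2217, 504 and 2421 FPM, and LR_20 at 655 lay above IR_248. Oligodendrocytes express Enpp2 as well, and it was at 201.6 FPM or more in every library. Its slope was 0.23 (SE 0.04, adjusted p = 0.0969).

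Among 11 receptors, 9 were higher, 3 by at least 1, none of them free of overlap, and Prlr passed the slope test. Prlr, the prolactin receptor, was at 8.63 FPM in HR_38, 25.3 in IR_213, 3.83 in IR_248 and 25.4 in IR_261 against 0.319 to 4.7 (median 0.605), with a slope of 0.64 (SE 0.12, adjusted p = 0.0487). That call was lost in 17 of 24 alternatives. Ace, angiotensin converting enzyme, listed with the receptors, was at 52, 147, 22.3 and 150 FPM against 6.61 to 40.1, the highest again LR_20, with a slope of 0.32 (SE 0.07, adjusted p = 0.261). Htr2c, the serotonin receptor of both choroid plexus and neurons, was at 237, 301, 127 and 330 FPM against 107 to 166. In IR_248 it lay below the median of the 14 (129), and its slope was 0.04 (SE 0.03, adjusted p = 0.759).

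Of 16 genes of junctions and epithelial structure, 15 were higher, 6 by at least 1, and Cldn2 passed the slope test. Cldn2, the pore-forming claudin of leaky epithelia, was at 60.6 FPM in HR_38, 167.3 in IR_213, 26.6 in IR_248 and 177 in IR_261 against 1.06 to 30.4 (median 2.64), with LR_20 above IR_248. Its slope was 0.80 (SE 0.07, adjusted p = 9.93e-05), the smallest adjusted p of all genes. Cldn1, a sealing claudin, did not overlap (6.54 to 22.9 against 2.24 to 6.17 FPM) and had a slope of 0.13 (SE 0.06, adjusted p = 0.713). Epcam, a general epithelial adhesion molecule, was at 0.807 to 1.93 FPM against 1.16 to 2.48 and did not follow Ttr (slope -0.01, SE 0.08).

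Of 13 transcription factors, 11 were higher, 3 by at least 1, and 0 passed the slope test by limma, with 2 of them at an unadjusted p under 0.05. Otx2, the homeodomain factor that specifies and maintains choroid plexus, was at 12.5 FPM in HR_38, 26.2 in IR_213, 8.34 in IR_248 and 31.7 in IR_261 against 1.49 to 6.27 (median 3.54), with no overlap. Its slope was 0.26 (SE 0.07, adjusted p = 0.713). Lmx1a, a factor of the embryonic roof plate and hem, was at 4.51, 10.9, 3.98 and 12.9 FPM against 0.711 to 3.26, and Msx1 at 22.3, 39, 14.9 and 39.1 against 8.23 to 14.6. Neither overlapped. Their slopes were 0.28 (SE 0.09, adjusted p = 0.713) and 0.06 (SE 0.04, adjusted p = 0.726).

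**Figure D3:**
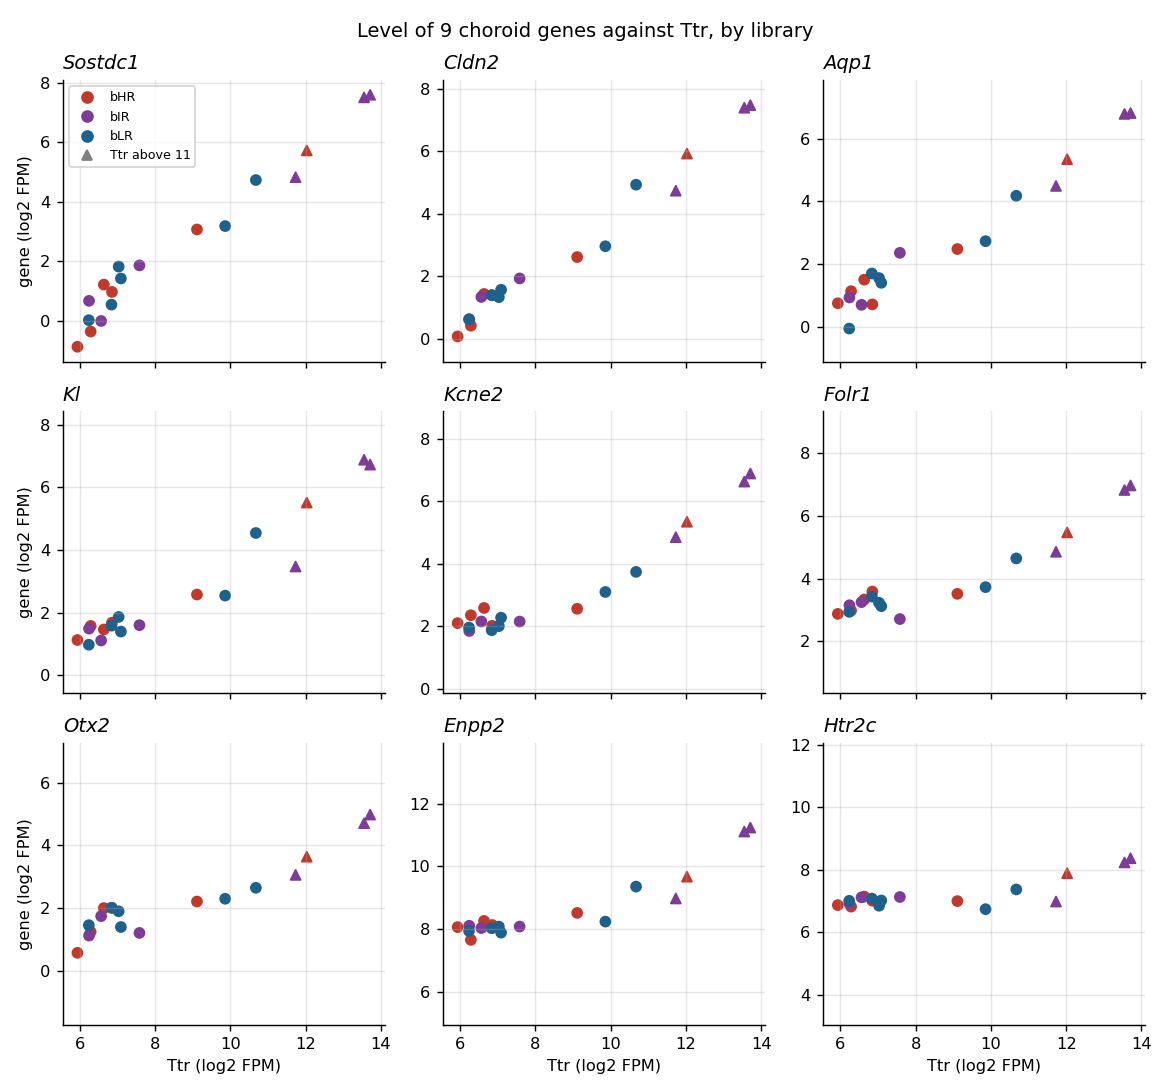
Level of 9 choroid genes (log2 FPM, y axes) against Ttr (log2 FPM, x axis) in the 18 libraries, coloured by line, with triangles for the 4 libraries above the threshold. Sostdc1 and Cldn2 climb across the whole range, Otx2 and Enpp2 climb mainly in the upper part, and Htr2c stays near 7 except in HR_38, IR_213, IR_261 and, less so, LR_20.

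The 8 called genes outside the choroid lists are named here because the test called them. Mfrp, a frizzled-related membrane protein of retinal pigment and ciliary epithelium, was at 64.5 FPM in HR_38, 180 in IR_213, 27.9 in IR_248 and 174 in IR_261 against 2.18 to 38 (median 3.83). LR_20 held the 38 FPM, and the slope was 0.69 (SE 0.07, adjusted p = 1.13e-04). Tmem27, collectrin, an amino acid transporter partner of kidney and pancreas, was at 20.5, 47.2, 18.6 and 76 FPM against 0.441 to 6.61 (median 0.833), a gap with no overlap. Its slope was 0.67 (SE 0.10, adjusted p = 0.00684). Mdk, the heparin-binding growth factor midkine, was at 70.1, 247.8, 73.3 and 267 FPM against 26 to 67.2, with a slope of 0.22 (SE 0.03, adjusted p = 0.00684). Pla2g5, a secreted phospholipase, was at 15.4, 35, 13.1 and 42.9 FPM against 1.97 to 6.74, with a slope of 0.32 (SE 0.05, adjusted p = 0.0165).

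The other 4 were read at low levels. Adipoq, the hormone adiponectin of fat cells, was at 2.93 FPM in HR_38, 10.9 in IR_213, 3.13 in IR_248 and 14.2 in IR_261 against 0.0315 to 2.26 (1 to 133 reads), with a slope of 0.96 (SE 0.15, adjusted p = 0.012). Scgb1c1, a secretoglobin, was at 5.08, 30.7, 9.37 and 31.5 FPM against 1.15 to 5.76, with LR_20 and LR_48 (5.31) above HR_38, and a slope of 0.48 (SE 0.08, adjusted p = 0.0133). Glycam1, a mucin-like glycoprotein, was at 0.776, 9.91, 2.44 and 13.8 FPM, and HR_38 again lay below LR_20 (1.95), LR_48 (1.99), HR_2 (1.2) and LR_8 (0.847). Its slope was 0.85 (SE 0.15, adjusted p = 0.0426). The uncharacterised RGD1564074 was at 4.47 to 21.2 against 0.243 to 4.42 FPM, with a slope of 0.53 (SE 0.09, adjusted p = 0.0372).

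The calls depended on 3 libraries. Without LR_20, LR_48 and HR_2 together, the 11 that remain hold Ttr at or below 192 FPM, and 0 genes were called in either direction by limma, with 843 at an unadjusted p under 0.05. Of the 20 slopes, 9 were then as large or larger (Sostdc1 1.60, Kcnj13 1.32, Cldn2 1.11), 10 were smaller but positive (Kl 0.40, Pla2g5 0.03) and that of Scgb1c1 was -0.20. Without LR_20 alone, 168 genes were called with a positive and 298 with a negative slope, and the positive ones held 17 of the 20. The other 3 were Kcne2 (slope 0.23, adjusted p = 0.0518), Prlr (0.45, adjusted p = 0.0652) and RGD1564074 (0.43, adjusted p = 0.056). Without LR_20 the slope of Kl was 0.38 (adjusted p = 0.0183), that of Kcnj13 0.81 (adjusted p = 0.0116) and that of Sostdc1 0.96 (adjusted p = 0.00417). LR_48 and HR_2 are the next highest in Ttr. These 2 libraries also had the highest summed levels of the oligodendrocyte list (34726 and 35015 FPM against 20151 to 31232 in the other 16). The sum is weighted to the most abundant transcripts. By the mean log2 level of that list relative to the 14, HR_2 was at 0.24 and LR_48 at -0.08, so LR_48 was not high by that measure. HR_2 had the highest summed thalamus and habenula list of the 18 libraries (205 FPM), followed by HR_34 (160) and LR_48 (159), with 98.9 FPM at the lowest (IR_293). The part of these lists in the 168 and 298 calls was not tested. Leaving out any other of the 14 libraries gave 15 to 23 positive and 0 negative calls. Abca4, Aqp1, Cldn2, F5, Kcnj13, Kl, Mfrp, Slc4a5, Slco1a5, Sostdc1 and Tmem72 were called in every alternative computed for them except the one without those 3 libraries. Prlr lost its call in 17 of 24 alternatives, RGD1564074 in 15 of 24, Glycam1 in 14 of 23 and Kcne2 in 10 of 24.

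The amount of each choroid transcript that came with a given amount of Ttr was not the same in every library. To describe this, the increment of a gene over the median of the low-Ttr libraries of its line was divided by the increment of Ttr and given per 1000 FPM of Ttr, a measure chosen after these values were seen. Kl came at 10.5 in HR_38, 9.68 in IR_213, 7.75 in IR_261 and 13.6 in LR_20, but at 2.51 in IR_248 and 3.75 in LR_48. Clic6 came at 9.03, 9.44, 8.60 and 17.1 in the first 4 and at 3.34 and 1.96 in IR_248 and LR_48. HR_2 lay between these and the first 4, at 6.70 for Kl and 7.24 for Clic6. F5 varied further, from 2.65 in IR_248 through 5.76 in HR_38 and 11.9 in IR_213 to 20.5 in LR_20.

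For other transcripts the ratio was close in the Ttr-rich libraries, LR_20 and LR_48. Otx2 came at 2.28 in HR_38, 2.01 in IR_213, 1.83 in IR_248, 2.21 in IR_261, 2.01 in LR_20 and 2.09 in LR_48. Pla2g5 came at 3.24, 2.73, 3.18, 3.03, 2.79 and 2.68 in the same order. In HR_2, where the increment of Ttr was smaller, they came at 3.11 and 4.29. Kcne2 came at 8.78, 7.91, 7.38 and 8.53 in the Ttr-rich libraries, at 6.22 in LR_20, 5.72 in LR_48 and 2.59 in HR_2. IR_248 and LR_48 were thus low in Kl and Clic6 for their Ttr and level with the others in Otx2 and Pla2g5. They were also low in Sostdc1 (8.10 and 8.70), Cldn2 (7.30 and 6.46) and Kcnj13 (6.02 and 4.65). In HR_38, IR_213, IR_261 and LR_20 these came at 12.6 to 16.2, 13.1 to 18.4 and 9.52 to 14.9, and in HR_2 at 15.2, 8.94 and 13.6. The low ratio was therefore not particular to Kl and Clic6. This is a description of single libraries with no replicate.

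**Figure D4:**
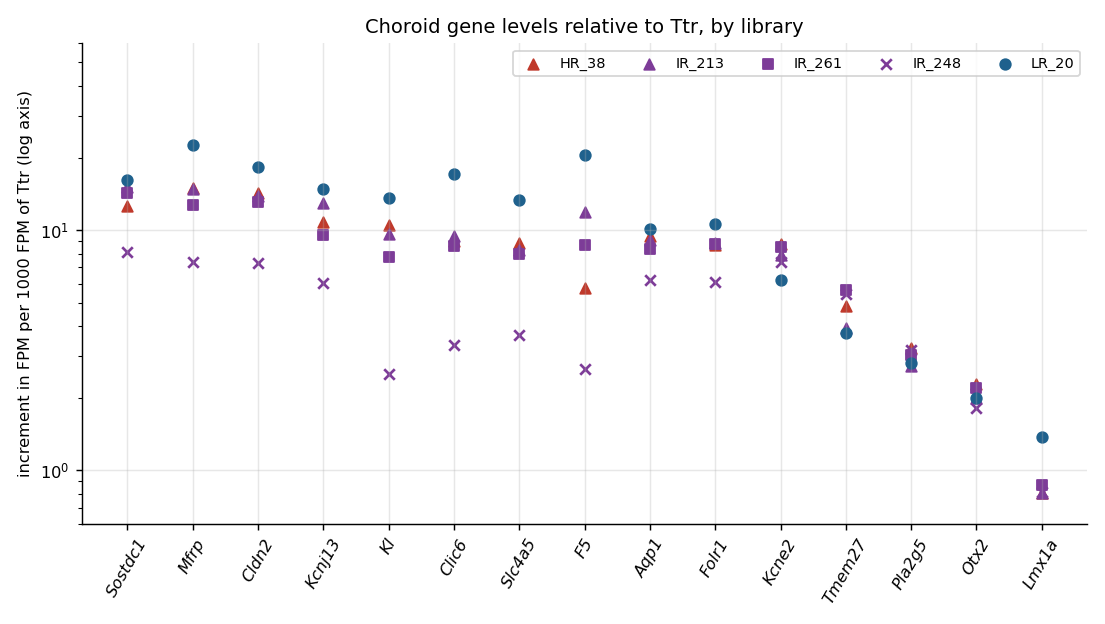
Increment of 15 genes per 1000 FPM increment of Ttr (log axis) in the 4 Ttr-rich libraries and LR_20, each over the median of the low-Ttr libraries of its line. Levels are not comparable between genes. IR_248 lies lowest for Kl, Clic6, Slc4a5 and F5 (2.51 to 3.65), LR_20 lies highest for these (13.4 to 20.5), and the libraries lie close together for Pla2g5 and Otx2. IR_248 also lies lowest for Sostdc1, Mfrp, Cldn2, Kcnj13, Aqp1 and Folr1.

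Stromal genes were also higher, with a different spread. Of 22 meningeal and stromal fibroblast genes, 20 were higher in the Ttr-rich libraries, 7 by at least 1, with a median of 0.77, and 0 were called in the slope test by limma (7 at an unadjusted p under 0.05). Their summed level was 1261 FPM in HR_38, 2335 in IR_213, 1707 in IR_248 and 1600 in IR_261 against 918 to 1634 in the 14. HR_2 (1634) and LR_32 (1512) were the highest of the 14, and LR_20 was at 1148. Crabp2, a retinoic acid binding protein of meninges, did not overlap (4.04 to 5.83 against 0.242 to 3 FPM). Fmod, the matrix proteoglycan fibromodulin, was at 13.7 in HR_38, 49.8 in IR_213, 15.5 in IR_248 and 57.1 in IR_261 against 5.37 to 17.2, with LR_20 highest of the 14. Col1a2, a fibrillar collagen chain, was at 17.7, 42.4, 23 and 17 FPM against 5.98 to 24.2, so 3 of the 4 lay within the range of the 14. Ptgds, prostaglandin D synthase of meninges and choroid plexus, was at 615, 1436, 900 and 865 FPM, and HR_2 (810) and LR_32 (783) lay above HR_38.

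Genes of motile cilia and ependyma did not separate the libraries. Of 20 such genes, 12 were higher and 8 lower, 0 by at least 1 upward, with a median of 0.06 and 0 calls in the slope test by limma (2 at an unadjusted p under 0.05). The summed level was 268 to 394 FPM against 226 to 408. Rsph4a, a radial spoke protein, had the highest difference of the list at 0.77 (SE 0.23), with 11.6 to 27.7 against 8.46 to 13.9 FPM. Foxj1, the master factor of motile cilia, was at 28 FPM in HR_38, 39.7 in IR_213, 18.9 in IR_248 and 41.2 in IR_261 against 16 to 28.4, so that IR_213 and IR_261 stood above all 14 and IR_248 below their median of 20.5.

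Vessel genes showed little difference between the groups at the median. Endothelial genes had a median of -0.02 (5 of 14 higher), and Plvap, the diaphragm protein of fenestrated vessels such as those of choroid stroma, was at 1.89 to 2.61 FPM against 1.73 to 4.22. Esm1, an endothelial proteoglycan, was the only endothelial gene higher by at least 1. It was at 0.479 to 0.693 FPM (20 reads or more) against 0.0105 to 0.464, with a slope of 0.53 (SE 0.27, limma adjusted p = 0.713). Mural cell genes had a median of 0.00, with 6 of 12 higher, 1 of them by at least 1 and with overlap. Among the 14 libraries, slopes on Ttr were positive for 3 of 14 endothelial and 2 of 12 mural genes. By limma 0 were called, with 4 and 3 at an unadjusted p under 0.05. Vwf (slope -0.14) and Cspg4 (-0.13) were called only in the alternative without LR_20 (-0.20 for each). Blood cell genes were higher for 7 of 8, with a median of 0.50, and their summed level was 949 to 1704 against 619 to 1641 FPM. The 4 libraries were not alike in this list. Its mean log2 level relative to the 14 was -0.86 in HR_38, the lowest of the 18 libraries, -0.04 in IR_213, 0.79 in IR_248 and 0.62 in IR_261.

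Border macrophage and MHC class II genes were higher for 13 of 14, with a median of 0.45 and overlap for every gene. Their summed level was 51.5 to 72.8 FPM against 36.1 to 78.6, and 0 passed the slope test by limma, with 5 at an unadjusted p under 0.05. Cd74, the MHC class II chaperone, was at 15.9 FPM in HR_38, 28.6 in IR_213, 26.5 in IR_248 and 24.1 in IR_261. IR_149 (36.4), LR_20 (33.4) and LR_32 (30.7) exceeded all of these. The lists of hippocampal and neighbouring tissue were near 0, with medians of -0.02 for dentate gyrus granule cells, 0.02 for CA1, -0.01 for CA3 and CA2, -0.08 for thalamus and habenula, -0.01 for striatum and septum, -0.08 for interneurons and 0.02 for immediate early genes. Glial medians were -0.14 for microglia, -0.03 for astrocytes and -0.10 for oligodendrocytes. None of these 10 lists had a member higher by at least 1. The 4 libraries were not alike in all of them. The mean log2 level of the immediate early genes relative to the 14 was 0.85 in IR_248, the highest of the 18 libraries. It was -0.18 in HR_38, 0.07 in IR_213 and 0.19 in IR_261. That of granule cells was -0.35 in HR_38, -0.01 in IR_213, -0.03 in IR_248 and 0.05 in IR_261. In the granule cell list Lct, lactase, was lower by that much (-1.52, SE 0.72), from at most 30 reads in any library and with overlap.

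**Figure D5:**
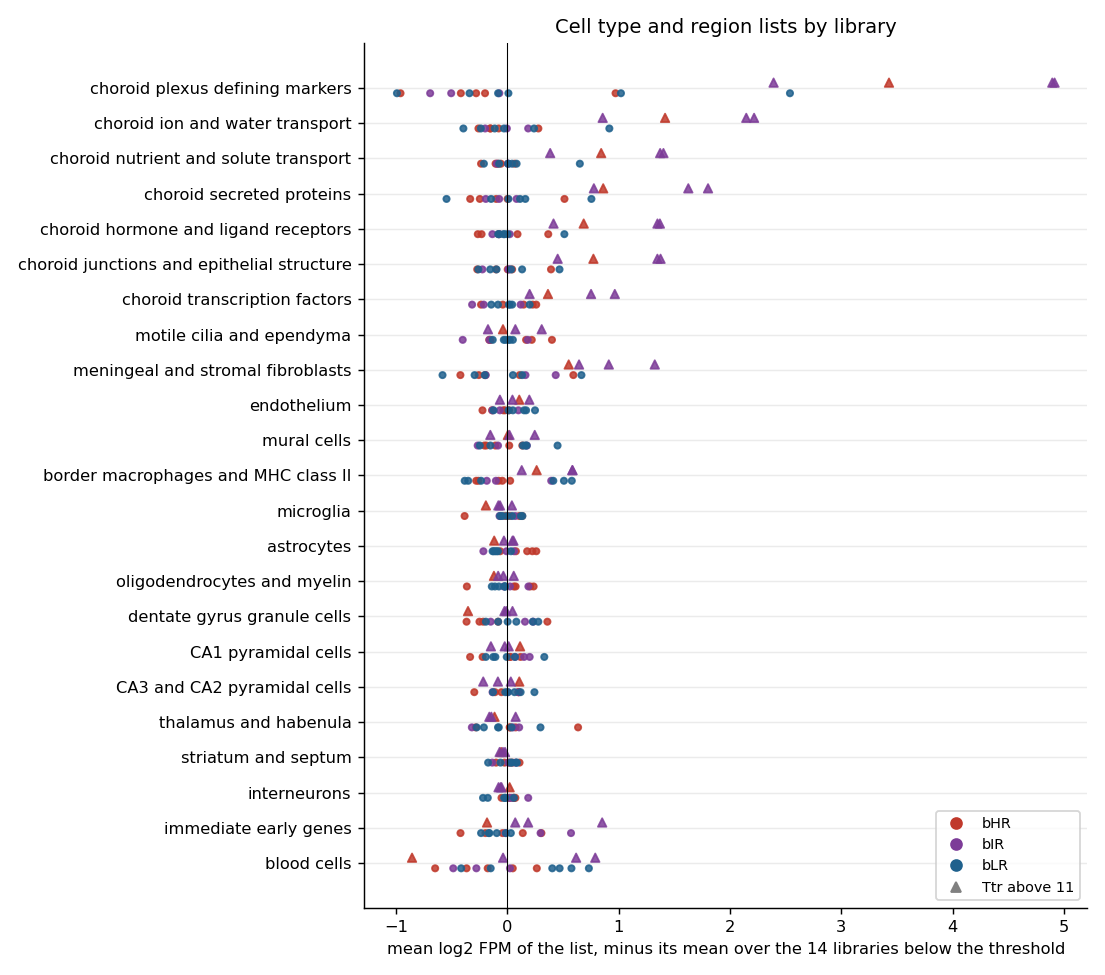
Mean log2 FPM of each list in each library, minus its mean over the 14 Ttr-poor libraries, with triangles for the 4 Ttr-rich libraries and circles for the 14, coloured by line. The triangles of the defining markers reach 4.92 and those of the 6 other choroid lists all lie to the right of 0, while the triangles of the lists from CA1 pyramidal cells to interneurons lie around 0. Among the circles, HR_2 (0.64) and LR_48 (0.30) are high for thalamus and habenula.

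Because 3 of the 6 bIR libraries and 1 of the 6 bHR libraries were Ttr-rich, leaving out the 4 changed the line estimates of choroid genes. The 4 were chosen for high Ttr, and the Ttr-poor bLR libraries were all kept. For Ttr and genes that go with it, the fall of the bIR estimate and of the residual SD was therefore set by the choice. The values are a description. bIR minus the mean of bHR and bLR had a median of 0.34 over the 111 choroid genes with all 18 libraries and -0.07 without the 4, and for the 5 defining markers 1.31 and -0.52. For Ttr itself the estimates were 2.02 (SE 1.12) and -0.66 (SE 0.76), and for Aqp1 1.73 (SE 0.87) and -0.29 (SE 0.59). No choroid gene was called by limma in this contrast with either set of libraries, in which 1 of 20909 genes (0.00478%) was called each time. The median residual SD within lines of the defining markers was 1.95 with all 18 libraries and 0.932 without the 4, against 0.242 and 0.233 for all genes.

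bHR and bLR differed for 93 genes (0.445%) with all 18 libraries, 91 (0.435%) without the 4 and 102 (0.488%) with Ttr as a covariate. Of the 111 choroid genes 0 were called, which is near these shares of all genes, so nothing is read from it. The fits with all 18 and without the 4 shared 72 genes, and 72 were also shared when only HR_38 was left out (90 called). With Ttr as a covariate 91 of the 93 were kept.

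Some of the genes whose call changed between these fits are named here. Slc39a12, a zinc transporter, differed by 2.50 (SE 0.65, adjusted p = 0.103) with all 18 and by 2.97 (SE 0.52, adjusted p = 0.0121) without the 4. HR_38 read 5.78 FPM while the other bHR rats read 27.7 to 56.5, and LR_48 read 31.4 while the other bLR rats read 2.83 to 5.08. In the bIR line IR_213 and IR_248 read 41.6 and 31.9 and IR_261 read 5.97, so its level did not go with Ttr. Prlhr, the receptor for prolactin releasing peptide, differed by 0.61 (SE 0.21, adjusted p = 0.316) and by 0.81 (SE 0.15, adjusted p = 0.0215). It was at 1.25 FPM in HR_38 against 2.82 to 3.25 in the other bHR rats. Cartpt, the CART neuropeptide precursor, differed by 0.78 (limma adjusted p = 0.106) and 0.97 (adjusted p = 0.0185), with HR_38 at 4.64 FPM and the other bHR rats at 8.22 to 12.2. Slc39a12 was called in 3 of 23 alternatives, and Prlhr and Cartpt in 2 of 23 each.

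Other calls ended when the 4 libraries were left out. Ucp3, a mitochondrial carrier, differed by -3.28 (adjusted p = 0.0192) with all 18 and by -3.03 (adjusted p = 0.0605) without them. Fst, the activin antagonist follistatin, differed by -1.26 (adjusted p = 0.0248) and by -1.12 (adjusted p = 0.0576). With Ttr as a covariate, Cd74 (-0.84, SE 0.18, adjusted p = 0.0366) and the MHC class II chain RT1-Ba (-0.91, SE 0.20, adjusted p = 0.0433) were lower in bHR than in bLR. With all 18 libraries and no covariate their adjusted p-values (limma) were 0.0861 and 0.126. Cd74 was called in 3 of 23 alternatives and RT1-Ba in 2 of 23, against 20 of 22 for Ucp3 and 16 of 23 for Fst.

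Behaviour did not enter the choice of libraries and was compared within bHR and bIR, the lines that hold Ttr-rich rats, by an exact two-sided permutation over 120 arrangements, 4 rats against 8. Of 5 behavioural scores and the read total, 0 passed after adjustment over the 6. Faecal boli in the maze were 4 in HR_38, 1 in IR_261 and 0 in the other 10 rats, a line-adjusted difference of 1.64 (exact p = 0.0833, adjusted 0.5). Locomotor score differed by -49 (exact p = 0.858, adjusted 0.858), open arm time by -6.52 percentage points (exact p = 0.483, adjusted 0.725) and read total by -9.34 M reads (exact p = 0.167, adjusted 0.5). The smallest p that 120 arrangements can give is 0.00833, which adjusted alone over the 6 is 0.05, so this design could hardly pass the threshold.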

How the data were processed

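Stranded polyA libraries were read as pairs. According to the submitters' processing notes and the labels' protocols, the authors used Subread on Rnor_6.0 and featureCounts on Ensembl 81, and then voom of limma in R 3.2.2. The authors deposited log2 values of depth-scaled fragments (offset 0.5 reads) for 20909 genes, and FPM here is the linear value behind them. The reads were recovered, and 100% of 376362 values came within 0.02 of whole reads. The tools' own versions were not given in the sources read.

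From the log2 values, limma 3.58.1 in R 4.3.3 gave the line-adjusted difference of the 4 and 14 libraries (no p), the slope on Ttr among the 14, and the line contrasts. The 2 tests used Benjamini-Hochberg adjustment over all genes and a threshold of 0.05. The size of the line-adjusted difference draws on bHR and bIR libraries only. The slope test was tried on simulated reads, drawn independently for each gene given its slope on Ttr. The other comparisons were not tried on simulated data. Overlap means that the ranges of the 2 groups meet.

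The libraries, the 23 gene lists (315 of 327 symbols measured) and the tests were chosen with earlier results of these data known. Genes named were the 5 markers, the members of each list with the largest differences, the genes called in the slope test, those with the largest differences and no overlap, and those whose line call changed between fits. Further genes (Lrp2, Epcam, Enpp2, Plvap, Col1a2, Ptgds, Cd74 and RT1-Ba) were named after their values were seen. Symbols were spelled after a RefSeq table of GRCr8, which matched 15178 genes. Alternatives were other regressors, covariates, filters, scalings and variance models, and leaving out libraries.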

Additional observations from a re-analysis of the deposited data

Results flagged for a closer look

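Within each line of 6 rats, the highest or lowest value was compared with its nearest neighbour by Dixon's ratio (critical value 0.625). Of 102 line-groups of values, 16 had such a value. Chance gives about 1 in 20 of independent groups, but choroid genes and lists move together and HR_38 was chosen for its Ttr level, so the number of choroid values below is partly set by that choice.

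Choroid markers stood apart in HR_38 among the bHR rats, with log2 FPM of 5.4748 for Folr1, 5.5154 for Kl and 5.5023 for Clic6. Its list means, relative to the 14 Ttr-poor libraries, stood apart at 1.4173 for ion and water transport and 0.84314 for nutrient and solute transport. LR_20 stood apart among the bLR rats at 0.65146 for nutrient and solute transport and 0.51247 for receptors, although its Ttr level was below the threshold.

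The astrocyte list was lowest in IR_149 at -0.21511 and highest among bLR in LR_48 at 0.032394. Among behavioural scores, locomotor activity was low in HR_34 (2079) and high in IR_149 (886), faecal boli were 4 in HR_38 and 1 in IR_261, maze distance was 29024 in IR_158, and open arm time was 26.75 percent in LR_32. The read total of IR_158 was 66.58 M reads.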

How the results depend on the processing

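No paired analysis was possible because the replicate numbers are the rats' own numbers and no number is shared between lines. The 20 positive slopes became 256 positive and 5 negative with all 18 libraries, and 0 without LR_20, LR_48 and HR_2 together (chosen after seeing the data), where 9 of the 20 slopes were as large or larger, 10 were smaller but positive and that of Scgb1c1 turned to -0.20. Leaving out 1 of the 14 gave 15 to 168 positive and 0 to 298 negative calls, with LR_20 behind both upper ends. The remaining settings gave 14 to 25 positive and 0 negative calls, and the mean of Folr1, Kl, Clic6 and Kcnj13 as regressor gave 18, of which 11 were among the 20. The 84 genes higher in Ttr-rich libraries became 49 at a size of 2, 53 with a mean log2 of at least 0 and 396 in bIR alone. The 2 lower genes became 0 with that filter and 174 in bIR alone. Leaving out HR_38, IR_213, IR_248, IR_261 or LR_20 gave 86 to 178 higher (134 without HR_38, 178 without IR_248) and 3 to 9 lower. The 93 genes called between bHR and bLR ranged from 46 to 138 when 1 library was left out: 46 without LR_8, 52 without HR_10, 53 without HR_34, 57 without LR_44 and 59 without LR_20. The 1 gene called for bIR stayed a count of 1 in each of these fits. Behavioural differences changed sign for locomotor score with medians (8), faecal boli over all 18 rats (-0.0357), immobile time in bIR alone (0.667) and open arm time in bIR alone (4.71), none passing (adjusted exact permutation p from 0.96 to 1). Of values for single genes, 810 kept direction and call, 107 lost and 25 gained a call, and 1 reversed. The depth of 31.1 to 66.6 M reads left genes such as Adipoq and Glycam1 with as few as 1 read in a Ttr-poor library.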

Other observations

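Some further transcripts are named here, with no test of the difference, since Ttr chose the libraries. C1qtnf3 was among the largest differences with no overlap, and the others were named after their values were seen. Hnf4a, Psca and C1qtnf3 separated the libraries and Trpv4 did not. Hnf4a, a nuclear receptor of liver and kidney epithelium, was at 0.776 FPM in HR_38, 2.11 in IR_213, 1.25 in IR_248 and 2.18 in IR_261 against 0.0134 to 0.415 in the 14, where it rested on 0 to 24 reads. Psca, a surface protein of epithelia, was at 1.73, 5.45, 1.20 and 5.23 FPM against 0.0827 to 0.793. C1qtnf3, a secreted relative of adiponectin, was at 4.35 to 24.7 FPM against 1.20 to 3.71. Trpv4, an osmosensitive cation channel of choroid epithelium, was at 2.90, 6.48, 1.07 and 7.93 FPM, and LR_20 (1.28) lay above IR_248. The slopes of these 4 genes on Ttr among the 14 had adjusted p-values of 0.713 (limma).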
